A study of Mus musculus with 32 samples.

Results

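Potassium channel genes were taken as the table's rows with a gene symbol that starts with Kcn, goes on with lower-case letters and ends in a number. There were 92 such genes among 27179. The rule found 40 alpha subunits of voltage-gated (Kv) channels, 15 inward rectifiers (Kir), 14 two-pore domain (K2P) channels, 8 alpha subunits of calcium- or sodium-activated channels, and 15 auxiliary subunits that form no pore of their own. The rule uses gene names only. The assay was MeDIP-seq, which sequences DNA enriched with an antibody to 5-methylcytosine (5mC), on mouse brain, heart, kidney and liver. Tissue was kept as FFPE tissue, fixed in formalin and embedded in paraffin, or flash frozen. The labels give no strain, sex, age or other treatment, and do not say whether samples of a group came from separate animals. The values come in 8 columns, 1 for each organ and preservation, which are called libraries here. Their names carry neither the antibody nor a replicate number, and they were read as 5mC precipitates.

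Potassium channels let potassium leave or enter cells along its gradient and so set the resting potential and end action potentials. Kv channels open on depolarisation, Kir channels pass current best near the resting potential, K2P channels carry background leak, and calcium- or sodium-activated channels link the current to these ions inside the cell. Auxiliary subunits such as the Kv channel interacting proteins (KChIPs), the Kcne peptides and the beta subunits change gating or surface expression. Neurons use many Kv alpha subunits, heart muscle repolarises through Kcnh2, Kcnq1 and Kcnj2 channels, and kidney tubules secrete and recycle potassium through Kcnj1 and Kcnj10. In mammals 5mC sits mainly at CG dinucleotides, which gather in CpG islands at many promoters.

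Promoter sequences are shown first because CG content sets how much 5mC a stretch of DNA can carry. RefSeq windows (GRCm38.p6) of 300 bases around the start site were found for 67 of the 92 members. Where a gene had several windows, the one with the most CG was used, for members and for all genes alike. The median member window held 16 CG dinucleotides, from 0 to 49, against a median of 8 over 27025 genes, and Kv alpha subunits had the highest class median (21). The GC box GGGCGG, searched on both strands, was present in 55.2% of member windows and in 37.3% of the windows of all genes, which is a description of letters and not of binding. The 5 windows below belong to the member with the largest liver excess (Kcng3), a Kv member called lower in brain with each library left out in turn (Kcnc1), the auxiliary subunit lowest in liver (Kcnip3), the member with the fewest reads in brain relative to the other organs (Kcna3) and the heart channel gene lowest in heart (Kcna5). CG dinucleotides are in capitals. The signal in the results is counted per gene, not over these windows.
Kcng3 (chr17:83631846-83632145, minus strand, 49 CG): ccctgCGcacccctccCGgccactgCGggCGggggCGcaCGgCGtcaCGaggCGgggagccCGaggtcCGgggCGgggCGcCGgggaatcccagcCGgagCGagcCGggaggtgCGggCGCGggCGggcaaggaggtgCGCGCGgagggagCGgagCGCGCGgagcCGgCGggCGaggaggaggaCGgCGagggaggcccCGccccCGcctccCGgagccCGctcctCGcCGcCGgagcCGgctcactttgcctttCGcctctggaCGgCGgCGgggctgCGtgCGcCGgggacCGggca
Kcnc1 (chr7:46396218-46396517, plus strand, 41 CG): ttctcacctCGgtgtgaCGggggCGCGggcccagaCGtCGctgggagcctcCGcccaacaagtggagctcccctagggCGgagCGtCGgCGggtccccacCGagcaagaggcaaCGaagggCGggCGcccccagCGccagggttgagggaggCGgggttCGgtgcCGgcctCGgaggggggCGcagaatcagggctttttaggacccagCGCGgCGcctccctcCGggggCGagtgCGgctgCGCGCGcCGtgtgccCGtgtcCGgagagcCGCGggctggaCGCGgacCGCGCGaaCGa
Kcnip3 (chr2:127482450-127482749, minus strand, 28 CG): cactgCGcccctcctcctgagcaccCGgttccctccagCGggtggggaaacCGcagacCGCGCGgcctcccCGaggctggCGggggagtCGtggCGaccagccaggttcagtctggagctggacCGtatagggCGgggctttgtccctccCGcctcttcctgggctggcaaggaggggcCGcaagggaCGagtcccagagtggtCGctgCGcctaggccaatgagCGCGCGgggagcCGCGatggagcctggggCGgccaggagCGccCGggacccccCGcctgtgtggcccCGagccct
Kcna3 (chr3:107035912-107036211, plus strand, 37 CG): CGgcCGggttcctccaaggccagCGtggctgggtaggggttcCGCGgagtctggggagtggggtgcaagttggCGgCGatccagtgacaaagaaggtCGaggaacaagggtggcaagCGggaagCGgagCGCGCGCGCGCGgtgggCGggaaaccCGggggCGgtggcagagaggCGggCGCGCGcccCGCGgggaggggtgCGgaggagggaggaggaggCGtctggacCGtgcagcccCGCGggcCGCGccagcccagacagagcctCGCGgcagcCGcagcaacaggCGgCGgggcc
Kcna5 (chr6:126535506-126535805, minus strand, 4 CG): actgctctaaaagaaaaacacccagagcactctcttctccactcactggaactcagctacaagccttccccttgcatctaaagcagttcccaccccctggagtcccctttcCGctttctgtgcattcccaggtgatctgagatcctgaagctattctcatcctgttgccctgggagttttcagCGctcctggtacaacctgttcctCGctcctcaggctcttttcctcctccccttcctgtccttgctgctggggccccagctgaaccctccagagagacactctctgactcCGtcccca
The windows of Kcng3, Kcnc1 and Kcna3 were dense in CG, and only 1.18%, 3.91% and 6.26% of all genes had a window with as many. That of Kcnip3, 1 of 3 in the table, held 28 CG (15.64% of genes had as many). Kcna5 had only 4 CG, a number that 69.69% of genes reached.

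Between 2164158 and 3699218 reads per library fell on the 27179 genes, and the members held 0.474% to 0.577% of them. The median member had 106.5 to 204 reads per library, and all 92 passed the filter of 1 CPM (counts scaled to the library's total and divided by a scaling factor of the library, 0.851 to 1.098, that the deposited values carry) in at least 2 libraries. Kcng2, Kcnj3 and Kcnmb3 had 0 reads in frozen kidney, and Kcnk15 had 0 in FFPE kidney and FFPE liver. A count of 0 allows up to 3 reads, or 0.876 to 1.42 CPM depending on the library, for counting error only. Across the members, which are not independent replicates, log2 values of the FFPE and frozen libraries correlated (Pearson's r) at 0.949 for brain, 0.939 for heart, 0.885 for liver and 0.80 for kidney, and FFPE kidney was closest to FFPE liver (0.944). The spread of log2 CPM over all genes ran between an SD of 2.07 in frozen brain and 2.91 in frozen kidney. Genes that mark the organs' own cells were read beside the labels. Their lists were chosen with earlier results of these data known, so they are no independent check of the labels. Hepatocyte genes were lower in liver for 5 of 6 (all genes 7.42%). Their summed signal was 93.2 CPM in FFPE liver and 63.1 CPM in frozen liver, against 163 to 243 CPM in the other libraries. Of the cardiomyocyte genes 2 of 6 were lower in heart (all genes 1.97%), and of the neuronal genes 3 of 8 were lower in brain (12.8%). In kidney 0 of 4 proximal tubule and 0 of 4 distal nephron genes were called (1.46%). Methylation per cell and the share of a cell type in the organ cannot be told apart in such bulk tissue.

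Read numbers differed widely between members. Kcnk15, a K2P channel, had the lowest mean signal, with 5 and 11 reads in brain, 5 and 11 in heart, 0 and 38 in kidney and 0 and 33 in liver (FFPE, then frozen). The sources used here do not give the feature that was counted, so levels are compared between libraries and not between genes.

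**Figure D1:**
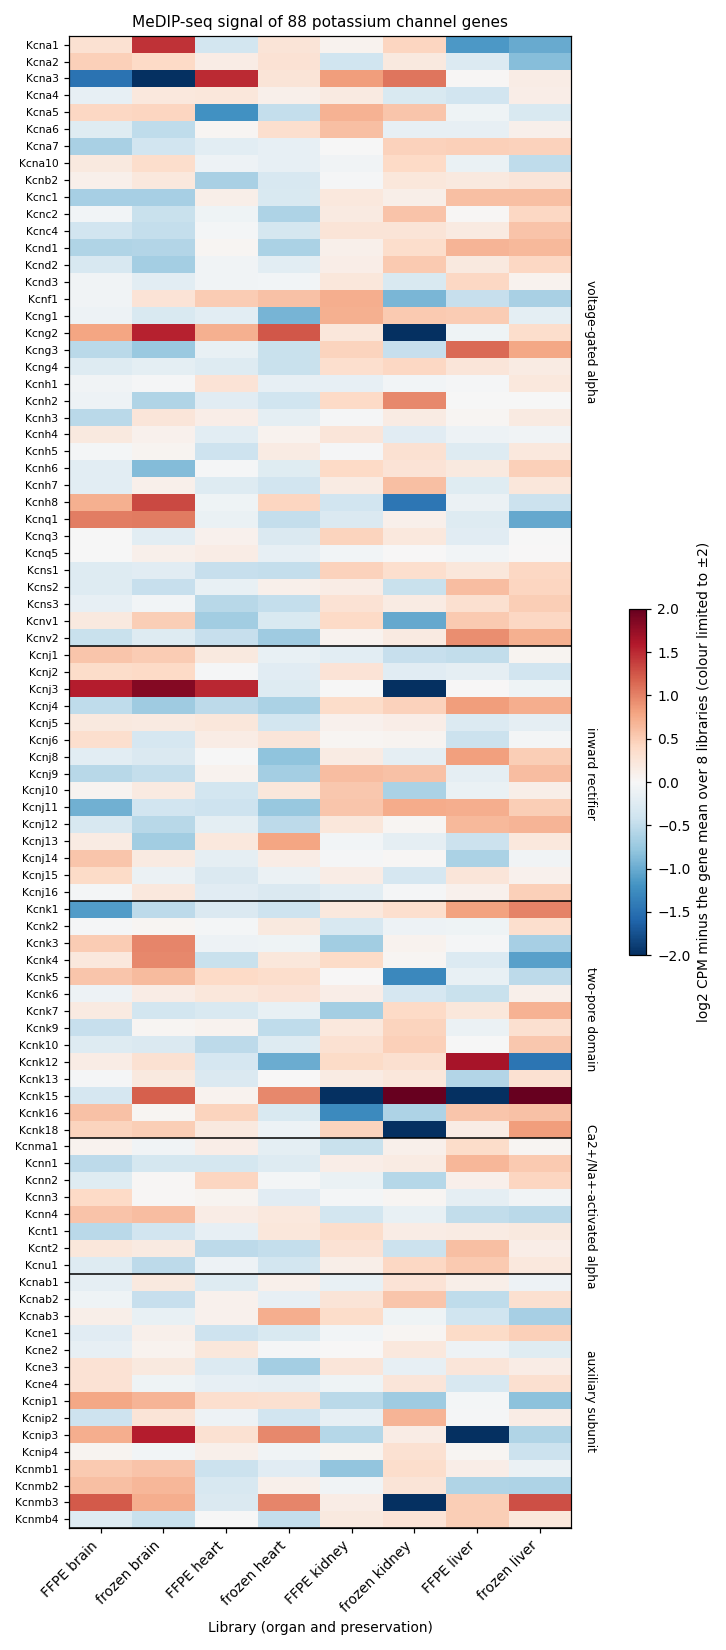
Log2 CPM of 88 of the 92 potassium channel genes (rows, grouped by class) minus the gene's mean over the 8 libraries (columns, FFPE left of frozen within each organ). Red is above and blue below the gene's mean. Kcng3, Kcnk1, Kcnv2 and Kcnj4 are red in both liver libraries, and Kcnip3 and Kcna1 are blue in both, while Kcnk15 changes colour between FFPE and frozen kidney and liver.

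Each organ was compared with the mean of the other 3 in a limma model of organ and preservation over 25982 genes. A member is called higher or lower at a Benjamini-Hochberg adjusted p under 0.05 over all genes, and differences are log2 differences of CPM with 0.5 read added, which understates changes of low genes. With 1 library per organ and preservation, the error (3 residual degrees of freedom) is the change of organ differences between FFPE and frozen tissue. The organ comparisons share libraries, so a member high in 1 organ is set against lower values in the others. In brain 10 members (10.9%) were higher and 19 (20.7%) lower, against 8.61% and 12.8% of all genes tested. In heart 0 were higher and 6 (6.52%) lower, against 0.162% and 1.97% (2.14% in either direction). In kidney 3 (3.26%) were higher and 0 lower, against 0.897% and 0.566% (1.46% in either direction). In liver 15 (16.3%) were higher and 4 (4.35%) lower, against 11.8% and 7.42%. In all, 36 members were called in at least 1 organ comparison and 56 in none. The share of all genes called in at least 1 was not computed, so this count has no background. Without the trend of the variance on the mean signal, limma called 0 of the 92 members and 0 of all genes in each organ comparison, and members at an unadjusted p under 0.05 then numbered 10 higher and 16 lower in brain (all genes 17% and 13.3%), 2 and 13 in heart (5.41% and 5.56%), 9 and 5 in kidney (5.07% and 8.29%), and 15 and 7 in liver (12.2% and 15.2%).

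The median difference over the members was -0.002 in brain, -0.15 in heart, 0.13 in kidney and 0.13 in liver, beside 0.11, 0.07, -0.02 and -0.10 over all genes tested. Scaling moved the split of calls. With quantile normalization 16 members were higher and 9 lower in brain (all genes 9.97% and 11%), and 8 higher and 5 lower in liver (5.1% and 4.98%). With each library centred on its median, 5 were higher and 24 lower in brain (6.17% and 18.8%), and 26 higher and 2 lower in liver (18.6% and 4.77%). The scaling factors in the deposited values lie above 1 in brain and heart and below 1 in kidney and liver, and dividing by them raises liver against brain. Without them, an alternative chosen after seeing the data, 15 were higher and 7 lower in brain (13% and 7.45%), 0 higher and 2 lower in heart (0.158% and 0.635%), 3 higher and 0 lower in kidney (0.489% and 0.573%), and 11 higher and 11 lower in liver (5.99% and 13.1%). The median difference over all genes then was 0.284 in brain, 0.19 in heart, -0.081 in kidney and -0.332 in liver, beside 0.169, -0.028, 0.065 and -0.097 over the members.

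**Figure D2:**
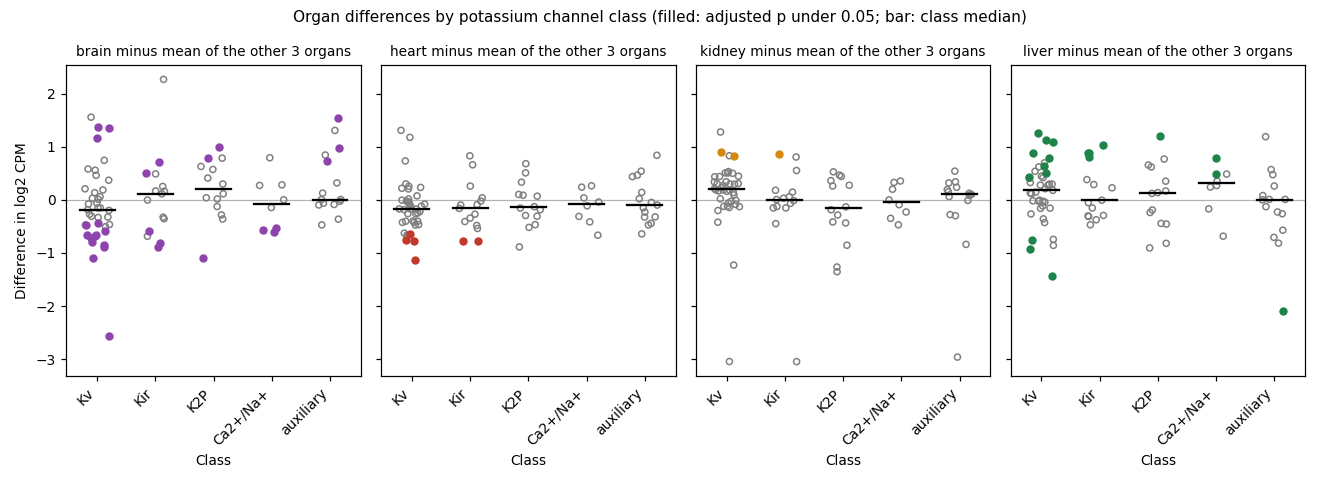
Difference in log2 CPM between each organ and the mean of the other 3 (y axis) for the members of each class (x axis: Kv, voltage-gated alpha; Kir, inward rectifier; K2P, two-pore domain; Ca2+/Na+, calcium- or sodium-activated alpha; auxiliary). Filled points have a limma adjusted p under 0.05 and bars are class medians. In brain 12 of 40 Kv genes are filled below 0 and 0 of 15 auxiliary genes are, beside 12.8% of all genes tested.

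Liver had 19 called members. Genes higher in liver were 8 of 40 Kv alpha subunits, 4 of 15 Kir, 1 of 14 K2P, 2 of 8 calcium- or sodium-activated and 0 of 15 auxiliary subunits. Of all genes tested 11.8% were higher in liver. Both liver libraries lay above all 6 others for 14 members (background 11.7%) and below all 6 for 5 (10.3%). The 6 largest excesses, among them those of Kcng3, Kcnk1, Kcnv2, Kcnj4 and Kcnj12, were called with each of the 8 libraries left out in turn. Libraries were left out singly, so that loss without either library of a pair means loss in each of 2 fits. With quantile normalization 7 of the 15 genes higher in liver, among them Kcna7, Kcnc1, Kcnc4, Kcnj11, Kcnn1 and Kcnu1, were no longer called. Without the scaling factors 4 of the 15 were lost, among them Kcna7, Kcnc4 and Kcnu1. Without FFPE liver 7 members were higher and 2 lower (all genes 3.75% and 1.9%), without frozen liver 8 and 1 (3.97% and 2.66%), and without frozen kidney 8 were lower (13.1%).

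Kcng3 encodes a silent Kv subunit that forms no channel alone and modifies other Kv channels (chr17:83574023-83631995; gene coordinates are those of RefSeq GRCm38.p6). It had 254 CPM in FFPE liver and 198 CPM in frozen liver, against 80.2 and 69.8 in brain, 105 and 85.1 in heart and 159 and 84.5 in kidney (FFPE, then frozen). Both liver libraries lay above all others, of which FFPE kidney was the nearest. The difference was 1.26 ± 0.16 (SE), limma adjusted p = 0.000106, or 2.40-fold higher. Kcnk1, a K2P channel (chr8:125993655-126030685), had 83.5 CPM in FFPE liver and 95.7 CPM in frozen liver, against 22.2 and 33.6 in brain, 39.5 and 36 in heart and 55.5 and 60.6 in kidney (FFPE, then frozen), with brain lowest. Its difference in liver was 1.19 ± 0.19 (SE), limma adjusted p = 0.000591.

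Kcnv2, a silent Kv subunit known from photoreceptors, had 290.3 CPM in FFPE liver and 249.6 CPM in frozen liver, against 113 and 128 in brain, 111 and 93.9 in heart and 160.4 and 173 in kidney (FFPE, then frozen), with a difference of 1.08 ± 0.14 (SE), limma adjusted p = 0.000125. The strong inward rectifiers Kcnj4 and Kcnj12 followed, at 1.03 ± 0.14 (SE), limma adjusted p = 0.000162, and 0.89 ± 0.14 (SE), limma adjusted p = 0.000593. Kcnj4 had 215 CPM in FFPE liver and 199.7 CPM in frozen liver, against 85.3 and 74 in brain, 84 and 77.7 in heart and 157 and 166 in kidney (FFPE, then frozen), so that kidney lay between liver and the other organs. Of 6 genes listed as liver channel genes 1 was called, higher in liver (all genes 11.8%). This was Kcnj8, the pore subunit of vascular KATP channels, at 0.88 ± 0.17 (SE), limma adjusted p = 0.00223. It had 126 CPM in FFPE liver and 101 CPM in frozen liver, against 61.7 and 58.6 in brain, 70.9 and 40.9 in heart and 79.6 and 62.7 in kidney (FFPE, then frozen). The call was lost without FFPE liver (limma adjusted p = 0.0536) and without frozen liver (0.0674). The other 5 of that list, Kcnn2, Kcnn4, Kcnk5, Kcnq1 and Kcne3, had differences of -0.86 to 0.35 and were not called, though without the scaling factors Kcnn4 (limma adjusted p = 0.0481) and Kcnq1 (0.0206) were called lower.

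The 4 members lower in liver included Kcnip3, Kcna1 and Kcna2. Kcnip3 encodes a calcium-binding KChIP, also known as calsenilin and as a transcriptional repressor (chr2:127456498-127522094, overlapped by the predicted gene Gm35478). It had 2.46 CPM in FFPE liver and 9.49 CPM in frozen liver, against 23.7 and 42.7 in brain, 17.7 and 27.9 in heart and 9.69 and 15.9 in kidney (FFPE, then frozen). In FFPE liver this rested on 6 reads, and both liver libraries were below all others, though frozen liver only just below FFPE kidney. The difference was -2.09 ± 0.36 (SE), limma adjusted p = 0.00101, and the call was lost without FFPE liver (limma adjusted p = 0.0521). Kcna1, a Kv subunit of axons (chr6:126636463-126645801), had 13.1 CPM in FFPE liver and 14.5 CPM in frozen liver, against 35.7 and 79 in brain, 22.4 and 34.6 in heart and 30.5 and 39 in kidney (FFPE, then frozen). The difference was -1.43 ± 0.25 (SE), limma adjusted p = 0.00101, and it was lost without frozen liver (limma adjusted p = 0.0567). Kcna2, another axonal Kv subunit, was at -0.75 ± 0.21 (SE), limma adjusted p = 0.0195, and was not called without frozen liver (limma adjusted p = 0.486) or frozen heart (0.0615).

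**Figure D3:**
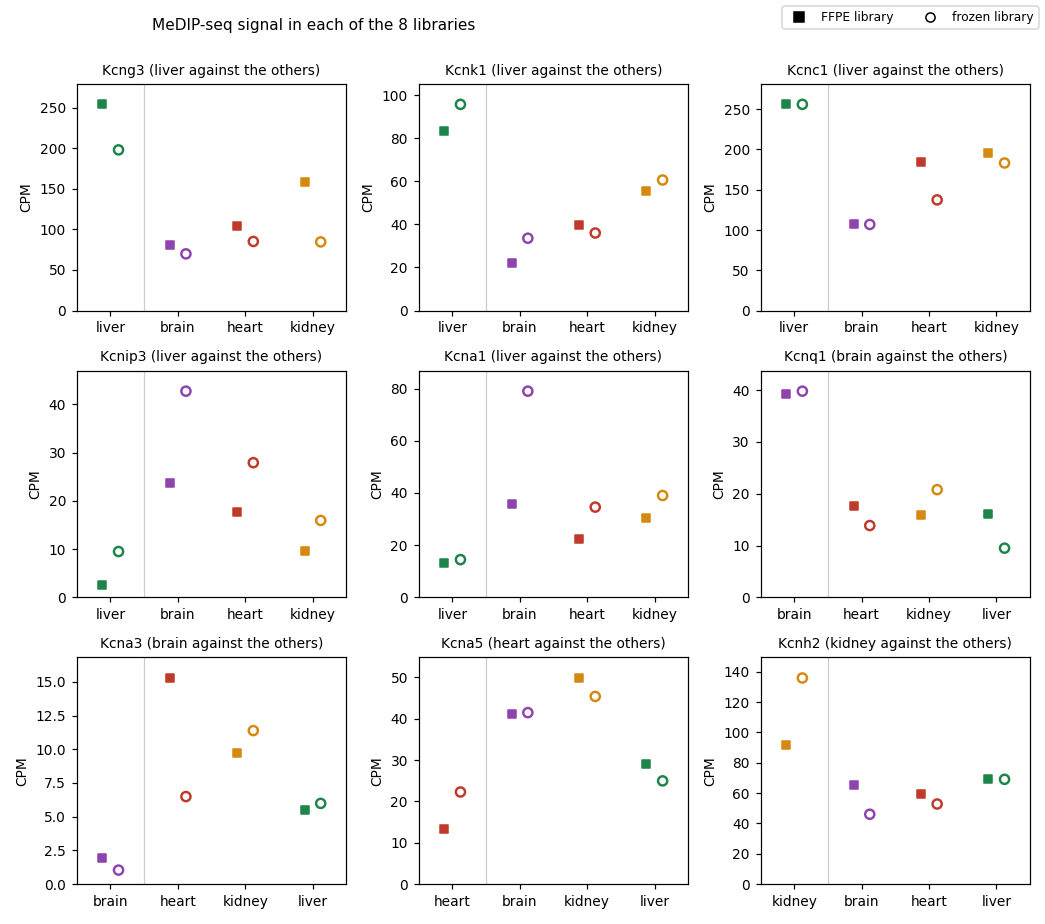
CPM (y axis, starting at 0) of 9 members in the 8 libraries, with the organ that the member is described for at the left of each panel. Filled squares are FFPE and open circles frozen libraries. Kcng3, Kcnk1 and Kcnc1 sit above all other libraries in liver, Kcnip3 and Kcna1 below them, and Kcna3 had 1.94 and 1.04 CPM in brain.

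Brain had the most called members. Lower in brain were 12 of 40 Kv alpha subunits (among them Kcna3, Kcna7, Kcnc1, Kcnc4, Kcnd1, Kcnd2, Kcng3, Kcnh6 and Kcnv2), 3 of 15 Kir, 1 of 14 K2P and 3 of 8 calcium- or sodium-activated subunits (Kcnn1, Kcnt1 and Kcnu1), with 0 of 15 auxiliary subunits. With quantile normalization 10 of the 19, among them Kcnc4, Kcnd2, Kcnh6, Kcnv2, Kcnj12, Kcnn1, Kcnt1 and Kcnu1, were no longer called lower. Without the scaling factors 12 of the 19 were not called, among them Kcna7, Kcnc4, Kcnd1, Kcnd2, Kcnh6 and Kcnv2. Higher in brain were 3 Kv subunits, 2 Kir, 2 K2P and 3 auxiliary subunits. Of all genes tested 12.8% were lower and 8.61% higher in brain. Both brain libraries lay above all 6 others for 13 members (background 16.5%) and below all 6 for 12 (11.7%). Members called higher numbered 0 without frozen brain (all genes 0.354%), 2 without FFPE brain (1.16%), 3 without FFPE heart (4.16%), 4 without frozen heart (4.71%), 5 without frozen liver (7.32%) and 17 without FFPE kidney (18.2%). Members called lower numbered 4 without frozen brain (2.52%), 7 without FFPE brain (6.41%) and 12 without FFPE heart (9.03%). Leukocyte marker genes also had more signal in brain, with 2 of 3 called higher (all genes 8.61%). Their summed signal was 188 and 171 CPM in FFPE and frozen brain, against 72.5 to 121 CPM in the other libraries. The part of cell composition in the counts of called members was not tested.

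Kcna3, the Kv channel of T lymphocytes and microglia (chr3:107036162-107038129), had the largest difference of the members called lower in brain. It had 6 reads in FFPE brain and 2 in frozen brain, against 38 and 18 in heart, 20 and 37 in kidney and 14 and 20 in liver (FFPE, then frozen). As CPM these were 1.94 and 1.04 in brain, against 15.3 and 6.49 in heart, 9.69 and 11.4 in kidney and 5.49 and 5.99 in liver. The summed reads relative to the scaled library totals gave a ratio of 0.159 in brain over the other organs (exact 95% interval 0.0676 to 0.323, counting error only), and relative to the totals themselves 0.181 (0.0765 to 0.365). The difference was -2.57 ± 0.58 (SE), limma adjusted p = 0.00593, and it was lost without frozen brain (limma adjusted p = 0.145).

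Kcnc1, a Kv subunit of fast-spiking interneurons (chr7:46396219-46438706), was among the deepest sequenced members. It had 107 CPM in FFPE brain and 107 CPM in frozen brain, against 185 and 137 in heart, 195 and 183 in kidney and 256 and 256 in liver (FFPE, then frozen). Brain was lowest, heart and kidney intermediate and liver highest. The difference in brain was -0.89 ± 0.14 (SE), limma adjusted p = 0.000586, and that in liver 0.79 ± 0.14 (SE), limma adjusted p = 0.001. The brain call was kept with each library left out in turn, and the liver call was lost without frozen liver. Kcnk1, at -1.09 ± 0.19 (SE), limma adjusted p = 0.00134, had its lowest values in brain, and was lost without FFPE brain (limma adjusted p = 0.0683). Kcng3 in brain was at -0.85 ± 0.16 (SE), limma adjusted p = 0.00181, and was lost without FFPE brain (limma adjusted p = 0.0718).

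Kcnj11, the pore subunit of KATP channels in heart muscle and pancreatic beta cells (chr7:46097123-46100952), was called in all 4 organ comparisons. It had 43.2 CPM in FFPE brain and 64.8 CPM in frozen brain, 62.9 and 50 in heart, 123 and 142 in kidney and 140.0 and 118 in liver (FFPE, then frozen), so brain and heart overlapped at a low level and kidney and liver at a high one. The differences were -0.90 ± 0.18 (SE), limma adjusted p = 0.00324 in brain, -0.78 ± 0.18 (SE), limma adjusted p = 0.0348 in heart, 0.86 ± 0.18 (SE), limma adjusted p = 0.0336 in kidney and 0.81 ± 0.18 (SE), limma adjusted p = 0.00542 in liver. These 4 differences rest on the same 8 values. Without FFPE brain the brain call was lost (limma adjusted p = 0.169), and without FFPE liver the liver call. The heart call was lost without FFPE heart (limma adjusted p = 0.173), frozen heart (0.853), FFPE liver (0.114), frozen liver (0.0539) or frozen brain (0.0721).

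Of 10 genes listed as brain channel genes, 4 were lower (among them Kcnc1 and Kcnd2), 1 was higher (Kcna1) and 5 were not called. Of all genes tested 12.8% were lower and 8.61% higher. Kcnd2 carries the dendritic A-type current and had 82.3 CPM in FFPE brain and 64 CPM in frozen brain, against 97.9 and 88.3 in heart, 113 and 147 in kidney and 117 and 136 in liver (FFPE, then frozen). It was at -0.66 ± 0.16 (SE), limma adjusted p = 0.0102, and was lost without frozen brain (limma adjusted p = 0.373) and without the scaling factors (0.0519). Kcnq3, a subunit of M-current channels, was at -0.15 and not called.

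Among members higher in brain, Kcnip3 had 23.7 CPM in FFPE brain and 42.7 CPM in frozen brain, against 17.7 and 27.9 in heart, 9.69 and 15.9 in kidney and 2.46 and 9.49 in liver (FFPE, then frozen). FFPE brain lay below frozen heart, so the groups overlapped. The difference was 1.53 ± 0.36 (SE), limma adjusted p = 0.00801, and it was lost without FFPE brain (limma adjusted p = 0.147) and without frozen brain (0.152). Kcnq1, the alpha subunit of the slow cardiac repolarising current (chr7:143106877-143427050), had 39.3 CPM in FFPE brain and 39.8 CPM in frozen brain, against 17.7 and 13.9 in heart, 15.8 and 20.8 in kidney and 16.1 and 9.49 in liver (FFPE, then frozen). Both brain libraries stood above all others. The difference was 1.38 ± 0.31 (SE), limma adjusted p = 0.00549, and it was lost without FFPE brain (limma adjusted p = 0.068) and without frozen brain (0.188). The antisense RNA gene Kcnq1ot1, which silences neighbours on the paternal chromosome, lies inside Kcnq1 and was also higher in brain, at 0.56 ± 0.13 (SE), limma adjusted p = 0.00751. Kcnq1ot1 had 636 CPM in FFPE brain and 733 CPM in frozen brain, far more than Kcnq1, so its reads were not all counted in Kcnq1 as well.

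Kcna1 had 35.7 CPM in FFPE brain and 79 CPM in frozen brain, and FFPE brain lay below frozen kidney (39.0 CPM). The difference was 1.17 ± 0.25 (SE), limma adjusted p = 0.00435, lost without frozen brain (limma adjusted p = 0.301). Kcnh8, an Elk-type Kv channel, had 27.9 CPM in FFPE brain and 42.3 CPM in frozen brain, against 16.1 and 23 in heart, 13 and 6.22 in kidney and 15.7 and 12.7 in liver (FFPE, then frozen). It stood at 1.35 ± 0.36 (SE), limma adjusted p = 0.0145, and was lost without frozen brain (limma adjusted p = 0.414) and without FFPE heart (0.054). Kcnk3, an acid-sensitive K2P channel, and Kcnip1, a KChIP, were at 0.999 ± 0.29 (SE), limma adjusted p = 0.0245, and 0.97 ± 0.32 (SE), limma adjusted p = 0.0407. Each had both brain libraries above all others, and each call was lost without either brain library, either heart library or frozen liver (limma adjusted p 0.0545 to 0.412). Kcnip1 overlaps Kcnmb1, a beta subunit of BK channels that was also higher, at 0.73 ± 0.24 (SE), limma adjusted p = 0.0414, and was lost without the same 5 libraries.

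Heart had 6 members called lower, 4 Kv subunits (Kcna5, Kcnv2, Kcng1 and Kcnb2) and 2 Kir (Kcnj11 and Kcnj4). None was called higher, and 1, Kcnip3, was higher at an unadjusted p under 0.05, against 22 lower (5.61% and 9.03% of all genes). Both heart libraries lay below all 6 others for 10 members (background 3.47%) and above all 6 for 1, Kcnk6 (4.78%). Without FFPE heart 0 members were lower (all genes 0.0231%), without frozen heart 0 (0.0154%), without FFPE liver 2 (0.608%) and without FFPE kidney 13 (5.36%), when 2 were also higher (2.73%). Without the preservation term 2 were lower (0.404%). Without the scaling factors Kcna5, Kcnj11, Kcng1 and Kcnb2 were not called (limma adjusted p 0.0682 to 0.135). Of the endothelial marker genes 2 of 3 were lower in heart (Cdh5 and Kdr), beside 1.97% of all genes. Their summed signal was 199.5 and 222 CPM in FFPE and frozen heart, against 328 to 393 CPM elsewhere. The part of cell composition was not tested.

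Kcna5, which carries the ultrarapid current of atrial muscle (chr6:126532551-126535555), had 13.3 CPM in FFPE heart and 22.3 CPM in frozen heart, against 41.1 and 41.5 in brain, 49.9 and 45.4 in kidney and 29 and 25 in liver (FFPE, then frozen). Frozen heart lay just under frozen liver, and both heart libraries were below all others. The difference was -1.12 ± 0.24 (SE), limma adjusted p = 0.0246, or 2.18-fold lower, and -1.55 in FFPE tissue and -0.70 in frozen tissue. It was lost without FFPE heart (limma adjusted p = 0.59), frozen heart (0.247), FFPE liver (0.082) or FFPE brain (0.0587).

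Kcnv2 and Kcnj4 in heart were at -0.78 ± 0.14 (SE), limma adjusted p = 0.0101, and -0.78 ± 0.14 (SE), limma adjusted p = 0.00932. Kcnv2 had 111 CPM in FFPE heart and 93.9 CPM in frozen heart, against 113 and 128 in brain, 160.4 and 173 in kidney and 290.3 and 249.6 in liver (FFPE, then frozen). FFPE heart and FFPE brain were close. Kcng1, a silent Kv subunit, and Kcnb2, a delayed rectifier, were at -0.76 ± 0.16 (SE), limma adjusted p = 0.0219, and -0.64 ± 0.15 (SE), limma adjusted p = 0.0378. Beyond the heart libraries, Kcng1 was lost without FFPE liver (limma adjusted p = 0.0811), and Kcnb2 without either brain or liver library (0.0656 to 0.111). Kcnb2 had 53.8 CPM in FFPE heart and 67.6 CPM in frozen heart, against 90.6 and 96.9 in brain, 82.9 and 98.5 in kidney and 96.8 and 99.5 in liver (FFPE, then frozen). Of 10 genes listed as heart channel genes, Kcna5 and Kcnj11 were lower (all genes 1.97%) and 8 were not called. The same list had 2 higher and 1 lower in brain (all genes 8.61% and 12.8%), 2 higher in kidney (0.897%) and 1 higher in liver (11.8%). Kcnh2, Kcnq1, Kcne1 and Kcnj2, which carry or regulate ventricular repolarising currents, were at -0.42, -0.40, -0.47 and -0.16, none of them called.

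Kidney had 3 members called higher and 0 lower, and at an unadjusted p under 0.05 there were 18 and 8 (9.12% and 9.52% of all genes). Kcnh2, the alpha subunit of the rapid cardiac repolarising current (chr5:24319589-24351684), had 91.9 CPM in FFPE kidney and 136 CPM in frozen kidney, against 65.3 and 46.1 in brain, 59.4 and 52.8 in heart and 69.1 and 69.1 in liver (FFPE, then frozen). Both kidney libraries lay above all others, frozen kidney by far the higher. The difference was 0.91 ± 0.19 (SE), limma adjusted p = 0.0343, or 0.51 in FFPE tissue and 1.30 in frozen tissue. Kcng1 had 155 CPM in FFPE kidney and 136 CPM in frozen kidney, against 88 and 76.9 in brain, 81.6 and 49.7 in heart and 134 and 83.1 in liver (FFPE, then frozen). FFPE liver was just below frozen kidney, and the difference was 0.82 ± 0.16 (SE), limma adjusted p = 0.0256. Both kidney libraries lay above all 6 others for 5 members (background 3.53%) and below all 6 for 2 (4.38%). The 3 calls, Kcnh2, Kcng1 and Kcnj11, were lost without frozen kidney, either heart library or either liver library, when 0 members were higher (limma adjusted p 0.0507 to 0.422), and Kcnh2 also without frozen brain (0.0853). Without FFPE kidney 8 were higher and 8 lower (all genes 5.86% and 8.71%). Without the preservation term 0 were higher (0.15%), without the filter 1 (0.394%), and with voom weights 7 (3.2%).

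Of 8 genes listed as kidney channel genes 0 were called in kidney, where 1.46% of all genes were, and 0 had a limma adjusted p under 0.107. The secretory channel Kcnj1 was at -0.45, the basolateral Kcnj10 and Kcnj16 at -0.07 and -0.15, and Kcnk5, a proximal tubule K2P channel, at -0.85. Kcnj1 was higher in brain, with 54.8 CPM in FFPE brain and 53.1 CPM in frozen brain, against 43.1 and 33.9 in heart, 32.4 and 27.2 in kidney and 26.7 and 38.7 in liver (FFPE, then frozen), at 0.70 ± 0.22 (SE), limma adjusted p = 0.0332. That call was lost without either brain library, either heart library or FFPE liver. Both brain libraries lay above all others by less than the spread among those others.

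Genes that work with these channels were read as a list of 29, among them scaffold, anchor and HCN channel genes. In brain 2 were higher (Dpp10 and Kcnq1ot1) and 9 lower, beside 8.61% and 12.8% of all genes tested. In liver 6 were higher and 1, Dpp10, lower, beside 11.8% and 7.42%. Heart had 1 lower (all genes 1.97%) and kidney 1 higher (0.897%), in both cases Hcn2. Dpp10, a partner of Kcnd channels, had 23.7 CPM in FFPE brain and 34 CPM in frozen brain, against 11.3 and 16.3 in heart, 12.5 and 12.6 in kidney and 7.39 and 8.03 in liver (FFPE, then frozen), and was at 1.37 ± 0.34 (SE), limma adjusted p = 0.0106. Hcn2, a pacemaker channel gene, had 391 CPM in FFPE liver and 318 CPM in frozen liver, against 109 and 80.7 in brain, 131 and 96.7 in heart and 222 and 402 in kidney (FFPE, then frozen), and was at 1.27 ± 0.20 (SE), limma adjusted p = 0.000502 in liver and -1.28 ± 0.20 (SE), limma adjusted p = 0.000624 in brain. Wnk4, a kinase that regulates Kcnj1, had the largest difference of the partners higher in liver, at 1.47 ± 0.21 (SE), limma adjusted p = 0.000254.

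Differences went with mean signal across the members. Over the 92 genes, which share the 8 libraries, Spearman's rho between the mean log2 CPM and the organ difference was -0.517 for brain, -0.395 for heart, 0.349 for kidney and 0.389 for liver. Members with a high mean tended to be lower in brain and higher in liver. The mean includes the tested organ's own libraries. This relation was not computed over all genes, so it is not shown to be particular to the members. The libraries' spread over all genes was unequal, narrowest in frozen brain, and its part in this was not tested. With quantile normalization, which gives all libraries the same spread, the split in brain changed from 10 higher and 19 lower to 16 higher and 9 lower. In liver it changed from 15 higher and 4 lower to 8 higher and 5 lower. The shares of all genes are given above. The members lower in brain had a median of 24 CG in the promoter window (11 with a window) and those higher in brain 18 (7 with a window), while those higher in liver had 16 (9 with a window), the same as all members. These sets share genes, since 14 of the 15 members higher in liver were also called lower in brain. Over all genes tested this held for 2043 of the 3056 higher in liver.

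**Figure D4:**
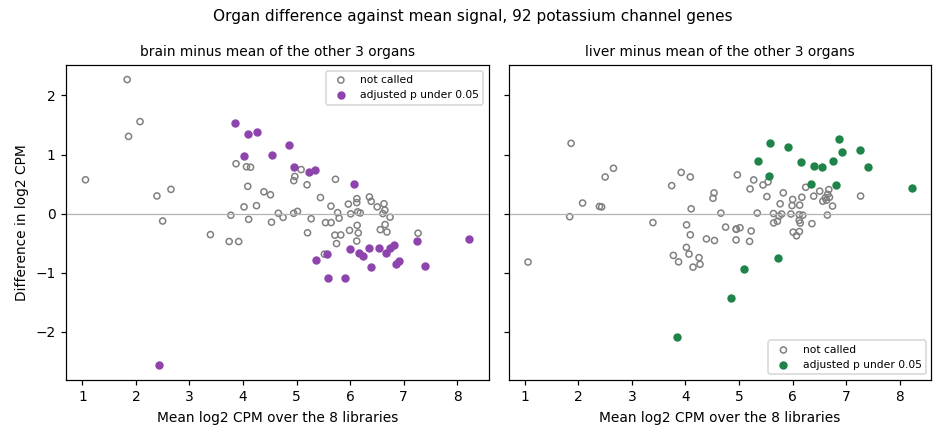
Organ difference in log2 CPM (y axis) against mean log2 CPM over the 8 libraries (x axis) for the 92 members, for brain (left) and liver (right). Filled points have a limma adjusted p under 0.05. Most filled points below 0 in brain and above 0 in liver lie at a high mean, with Kcna3 the exception at a low mean in brain.

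Several members are neighbours in the genome. With gaps of at most 500 kb, 29 members fell into 12 groups, such as Kcna5, Kcna1 and Kcna6 on chromosome 6 and Kcna3, Kcna2, Kcna10 and Kcnc4 on chromosome 3. In brain, where 29 of the 92 members and 21.4% of all genes were called, 7 of the 12 groups held a called member. At least 2 were called in the same direction in 3 groups. Groups with a called member numbered 2 in heart, 1 in kidney and 3 in liver, and those with 2 called alike 0, 0 and 1. In liver 1 group was called both ways. Whether neighbours go together more than other members was not tested. Of the 4 neighbours on chromosome 7, Kcna7, Kcnj11 and Kcnc1 were lower in brain at -0.68, -0.90 and -0.89 and higher in liver, while Kcnj14 between them was at 0.49 in brain and not called. Kcna3 and Kcnc4 were both lower in brain, and the overlapping Kcnip1 and Kcnmb1 both higher. Kcna1 was higher in brain at 1.17, while Kcna6 was at -0.51 and Kcna5 at 0.56, neither called.

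FFPE minus frozen, over the 4 organs, gave 0 members higher and 0 lower in limma, against 0.62% and 0.735% of all genes tested. At an unadjusted p under 0.05, 3 members were higher (Kcng1, Kcng3 and Kcnj8) and 4 lower (Kcna1, Kcnh5, Kcnip3 and Kcnk15), beside 5.87% and 4.8% of all genes. The median difference over the members was 0.03, as over all genes (0.02). Kcnk15 had the largest difference, -3.44 ± 0.88 (SE), limma adjusted p = 0.0734, and is named after its values were seen. It had 0 reads in FFPE kidney, against 38 in frozen kidney, and 0 in FFPE liver, against 33 in frozen liver, but 5 in FFPE brain, against 11 in frozen brain, and 5 in FFPE heart, against 11 in frozen heart. With 2 added to each count, it was called lower in FFPE tissue.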

How the data were processed

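The deposited table holds log2 values of counts scaled to library totals (CPM) with 0.5 added to each count, made by the authors for 27179 genes in 8 columns. The totals enter multiplied by a factor per library (0.851 to 1.098, computed from the values), whose method is not stated in the sources used here. Bowtie2, featureCounts, limma and the build mm10 were used, per the submitters' processing notes, without versions. The counted feature, the strand and any pooling of samples are not stated there. The labels list 32 samples in 16 groups of 2, 16 samples of which are unprecipitated Input. A fit of groups of 2 was not possible because the table has 1 column per organ and preservation. All values stepped back to whole reads (tolerance 1e-04), and these reads served for depth, intervals and alternatives only. Input values were not used here, and no enrichment over Input was computed.

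Organ and preservation were fitted in limma 3.58.1 (R 4.3.3) with a trend of the variance (13.1 prior degrees of freedom) over the 25982 genes that reached 1 CPM in 2 or more libraries, which left out 1197. P-values were adjusted by Benjamini-Hochberg over all genes tested, and the procedure was tested on simulated data. The intervals on the Kcna3 ratio are exact binomial intervals on the brain's share of the reads, turned into ratios. The bound for a count of 0 is a fixed 3 reads. Named members are up to 6 per direction with the largest difference among called members with at least 10 mean reads, the organ channel lists, and the members with the highest and lowest mean, and a few genes that this rule names are not reported here. Members and lists (organ channel genes, partners, and markers of neurons, astrocytes, oligodendrocytes, cardiomyocytes, proximal tubule, distal nephron, hepatocytes, endothelium, leukocytes and smooth muscle) were chosen with earlier results of these data known. Of markers not given with the results, 0 of 4 astrocyte and 0 of 3 smooth muscle genes were called in an organ comparison, and 1 of 4 oligodendrocyte genes, Mbp, was lower in brain. Genes were placed by Entrez ID on RefSeq GRCm38.p6, which matched all 92 members.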

Additional observations from a re-analysis of the deposited data

Results flagged for a closer look

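A few members stood beyond all 3 other organs in one direction in FFPE tissue and in the opposite direction in frozen tissue. The difference between the preservations was not tested, since the table has no residual degrees of freedom for it. In heart, Kcnj5 was 0.22 (log2) above the mean of the other organs in FFPE tissue and at -0.412 in frozen tissue, and Kcnk15 was at 2.382 and -1.02. The Kcnk15 values rest on 0 to 38 reads per library. In kidney, Kcnj10 was at 0.682 in FFPE tissue and at -0.816 in frozen tissue, and Kcnma1 at -0.641 and 0.183. Such opposite placement was seen for 2 of the 92 members in brain, 6 in heart, 4 in kidney and 5 in liver, beside 3.76%, 3.58%, 7.83% and 4.49% of all genes tested.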

How the results depend on the processing

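Counts of called members depended on the processing. Without the trend of the variance, 0 members were called in each organ comparison. With quantile normalization brain had 16 higher and 9 lower and liver 8 higher, and with centred libraries brain had 5 higher and liver 26 higher and 2 lower. Without the scaling factors (chosen after seeing the data) brain had 7 lower, heart 2 lower and liver 11 lower. Without the preservation term brain had 5 higher (all genes 5.91%), heart 2 lower (0.404%) and kidney 0 higher (0.15%). Kidney had 1 higher without the filter (0.394%) and 7 with voom weights (3.2%). FFPE tissue had 1 lower (Kcnk15) with 2 added to each count (0.827%). With each library left out in turn (a lone library of an organ was assumed to vary like the others), counts ran over 0 to 17 higher and 4 to 22 lower in brain, 0 to 2 higher and 0 to 13 lower in heart, 0 to 8 higher and 0 to 8 lower in kidney, and 7 to 21 higher and 1 to 8 lower in liver. The shares of all genes called moved as well, but those given with the organs above do not cover every end of these ranges. The causes were not tested.

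Signs turned for the following listed genes, which were not called in that organ. In brain, quantile normalization gave 0.0721 for Kcnc2 and 0.006 for Kcnq3, and Kcnma1 was at -0.1526 with centred libraries and at -0.0072 with voom weights. In heart, Kcnd3 was at 0.1068 with quantile normalization. Without the scaling factors Kcnq3 was at 0.0187 in brain, and Kcnd3 at 0.0441 and Kcnj5 at 0.0285 in heart. Leaving out libraries moved Kcnj10 over -0.0884 to 0.411 and Kcnma1 over -0.1369 to 0.1378 in brain, Kcnd3 over -0.2555 to 0.0945, Kcnip2 over -0.75 to 0.102 and Kcnj5 over -0.4119 to 0.2199 in heart, and Kcna10 over -0.0526 to 0.5084, Kcnj10 over -0.8157 to 0.6824, Kcnj15 over -0.291 to 0.0407 and Kcnma1 over -0.6407 to 0.1832 in kidney. No paired analysis was possible because the columns carry no replicate numbers. Depth limits members such as Kcnk15, with a mean of 12.9 reads.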
